A study of Mus musculus with 12 samples.

Results

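The comparison was between cells enriched for T cells from mouse skin at a disease flare and at the first lesions, in a model of cutaneous lupus erythematosus. The labels call them T cells, but most defining T cell markers were at or below detection, so they are called skin samples here. The 6 skin samples of the study, 3 flare and 3 first, were taken out of 12 samples by their labels, and the 6 others were cultured cells used here for scale alone. All 6 came from sublethally irradiated Ii-TGO recipients that were injected intravenously with Th2-skewed DO11.10 T cells, whose transgenic receptor recognises a peptide of ovalbumin (BALB/c background). In these recipients doxycycline chow switches on an ovalbumin fusion protein in MHC class II cells, through a transactivator under the invariant chain promoter. First samples were taken at about week 4 from mice 1, 3 and 6 of experiment 1, whose skin was scored 1, 3 and 3. Flare samples were taken at about week 12, after the chow had been withdrawn and given again, from mice 1 and 2 of experiment 1 and mouse 12 of experiment 2, scored 1, 0.5 and 2. The labels do not say whether a recipient was TLR9-sufficient or TLR9-deficient, whether its donor cells were Rag-deficient or carried the 4get reporter, or whether mouse 1 of both groups was 1 animal. The titles of the 6 skin samples give no sex, and the study used mice of both sexes, so a part of sex in any difference was not tested. Cells were enriched from digested lesional skin, with CD3 beads by the labels, while the study's results text names KJ1-26, the antibody to the DO11.10 receptor.

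As background, Th2 cells are CD4+ helper cells that secrete interleukin (IL)-4, IL-5 and IL-13 under the transcription factor Gata3, and Th1 cells secrete interferon-gamma. Interferon-gamma acts on neighbouring cells to induce the chemokines Cxcl9 and Cxcl10 and MHC molecules. Signals from antigen and cytokine receptors reach the nucleus through NFAT, NF-kB and JAK-STAT proteins, and complement is a cascade of plasma proteins that is also made in inflamed skin.

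RNA was counted without amplification with color-coded NanoString probes for 547 immune genes, called endogenous, beside 14 housekeeping genes and control probes (6 positive, 8 negative). The endogenous total was 27347, 61513 and 131229 in first mice 1, 3 and 6 and 25925, 29279 and 55349 in flare mice 1, 2 and 12, against 417917 to 481131 in the 6 cultures. To give scaled counts, each sample was brought to a common geometric mean over 7 housekeeping genes. The detection limit of a sample was the mean of its negative controls plus 2 SDs, which left 163, 294 and 303 genes above it in the first mice and 241, 217 and 295 in the flare mice. On the scaled axis this limit was at 67.2, 9.90 and 15.1 in the first mice and at 37.3, 44.1 and 18.3 in the flare mice, so a low value in first mouse 1 lies within its background while the same value in first mouse 3 does not. First mouse 1 was the highest of the 3 first samples for 170 of 277 genes.

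The defining markers of T cells were near the limit in all 6 samples. Of 7 such genes, Cd3e, the epsilon chain of CD3, Cd5, a surface coreceptor, and Lck, the kinase that starts receptor signaling, were above the limit in none of the 6 samples. Cd3d, another CD3 chain, was above it in 1 first and 0 flare samples, Cd247, the zeta chain, in 0 first and 2 flare samples, and Cd4 in 0 first and 1 flare sample. Cd2, an adhesion receptor, was detected in 2 first and 3 flare samples, at 44.3, 15.9 and 23.2 scaled counts in first mice 1, 3 and 6 and 51.4, 66.8 and 42.8 in flare mice 1, 2 and 12. Summed over the 7 genes, the scaled count was 53.6 to 236 in first samples and 136 to 201 in flare samples, against 2526 to 3154 in the 3 Th2 cultures. No background was taken off these sums, and the 236 was that of first mouse 1, whose scaled limit of 67.2 was the highest. Cd3e was at 3 to 27 raw counts in skin and at 3676 to 4130 in the Th2 cultures.

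Markers of other cells were present in both groups. The scaled counts of 16 myeloid marker genes summed to 924 to 2946 in first samples and 1775 to 3120 in flare samples, and 14 of the 16 were above the limit in at least 1 sample. The sum for 11 stromal, endothelial and epithelial genes was 262 to 769 and 622 to 719, that for 9 dendritic cell genes 204 to 638 and 587 to 824, and that for 7 neutrophil genes 240.4 to 409 and 334 to 980. The B cell genes Cd79a, Cd79b and Ms4a1 and the mast cell gene Kit were above the limit in no sample. Of the neutrophil genes, Camp, Cxcr1 and Cxcr2 were also above it in none, and S100a8, S100a9 and Ceacam1 were the 3 tested below. The first and flare ranges of these 4 sums overlapped. No background was taken off them, and first mouse 1, which had the highest scaled limit, gave the top of each first range. In bulk RNA, a different share of a cell type and a different amount of RNA per cell cannot be told apart, and the part of these cells in the results that follow was not tested.

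**Figure D1:**
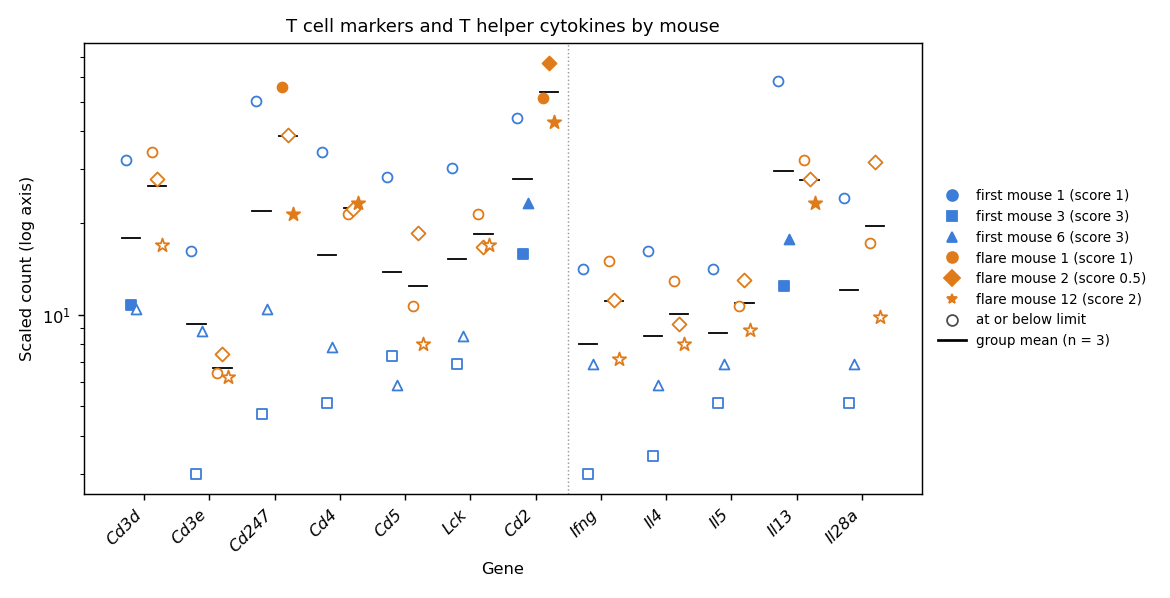
Scaled counts (log axis) of 7 T cell markers, left of the dotted line, and 5 T helper cytokine genes, right of it, in each of the 3 first mice (blue) and 3 flare mice (orange); open symbols are at or below that sample's detection limit and bars are group means. Most symbols are open, and Cd2 is the marker with the most filled symbols.

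Of the 547 genes, 141 were above the limit in all 6 samples, 205 in none, and 277 in at least 3. These 277 entered edgeR's quasi-likelihood test. No gene differed between flare and first lesions at an adjusted p under 0.05 (Benjamini-Hochberg over the genes tested, 0 of 277 or 0%), and the smallest adjusted p was 0.378 by edgeR's quasi-likelihood test. At an unadjusted p under 0.05, 28 genes had the higher level at flare (10.1%) and 2 the lower (0.722%). The 28 became 70 without first mouse 1, 11 without first mouse 3, 15 without flare mouse 1 and 13 without flare mouse 2. All 3 flare samples lay above all 3 first samples for 45 genes (16.2%) and below them for 2 genes (0.722%). DESeq2's Wald test called 10 genes at an adjusted p under 0.05 and limma called 0. The 10 genes, each with the higher level at flare, were C4a, C6, Ccl7, Cd48, Ceacam1, Cxcl15, Jak3, Nfatc2, Stat5a and Tbk1.

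The median log2 fold change, flare over first, was 0.42 over the 277 genes, or 1.34-fold higher at flare, with 227 genes above 0 and 50 below. This common shift followed the scaling. The median was -0.0032 with TMM factors, which take most genes as equal between samples, -0.0098 with DESeq2 size factors, -0.0019 with total endogenous counts, 0.28 with all 14 housekeeping genes and -0.46 with the positive controls, and no gene passed under any of the 5. With TMM factors 15 genes were higher and 7 lower at an unadjusted p under 0.05, and the groups did not overlap for 22 higher and 12 lower genes. Under all 6 scalings the groups stayed apart for 3 genes, each higher at flare, among them the complement genes C4a and C6. Leaving out the positive controls, they stayed apart under the other 5 for 13 higher genes, among them also Ccl7, Cd48, Cxcl12, Il4ra, Jak3, Nfatc2, Prkcd, Rela, Stat5b and Tgfbr2, and for 2 lower genes, Cd109 and Il33.

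**Figure D2:**
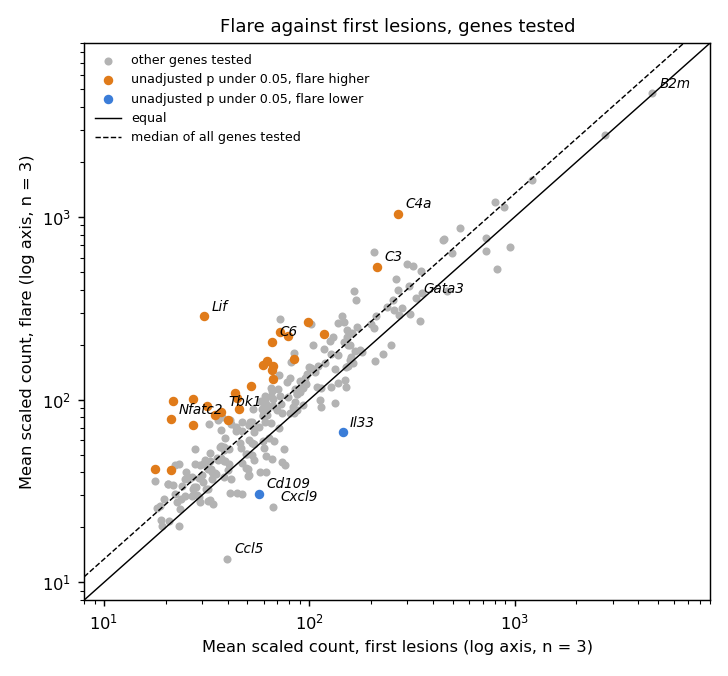
Mean scaled count in flare samples (n = 3) against first samples (n = 3) for the 277 genes tested, both axes log; the solid line marks equal levels, the dashed line the median shift of 1.34-fold, and color the 30 genes with an unadjusted p under 0.05. Most genes lie above the solid line, Lif, C4a and Nfatc2 lie well above the dashed line, and Il33, Cd109, Cxcl9 and Ccl5 lie below both.

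Complement genes included the gene with the smallest p. C4a, a form of complement component 4, was at 409, 132 and 268 scaled counts in first mice 1, 3 and 6 and at 833, 852 and 1450 in flare mice 1, 2 and 12. The lowest flare mouse was above the highest first mouse. The log2 fold change of C4a was 1.96 (standard error 0.53, adjusted p = 0.378 by edgeR's quasi-likelihood test), and it ran from 1.33 to 2.38 over 19 other settings, positive in each. C4a has a near-identical copy in the mouse genome, C4b, and the files do not show whether the probe separates them.

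C6, a component of the membrane attack complex, was at 127, 27.4 and 43.5 scaled counts in first mice 1, 3 and 6 and 150, 195 and 277 in flare mice 1, 2 and 12. First mouse 1 was the closest of the first samples to the flare samples. C3, the component on which all complement pathways converge, was at 258, 105 and 281 in the first mice and 657, 629 and 315 in the flare mice, with flare mouse 12 near first mouse 6. The log2 fold changes were 1.71 for C6 and 1.32 for C3.

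Other complement genes had smaller differences. All 12 tested components of 20 on the panel had a log2 fold change above 0, beside 81.9% of all genes. Their median was 0.52 beside 0.42 for all genes, and 3 had an unadjusted p under 0.05 and the higher level at flare, beside 10.1% of all genes. The signs followed the scaling. With TMM factors C4a, C3 and C1qa stayed above 0, at 1.69, 0.94 and 0.37, and C1qb and C1s were at -0.084 and -0.056. C1qa and C1qb, chains of the C1q recognition molecule, had values of 0.53 and 0.13. C1qa was at 662, 130 and 263 scaled counts in first mice 1, 3 and 6 and 296, 325 and 890.2 in flare mice 1, 2 and 12, so the groups overlapped. Among 4 tested regulators and receptors, with a median of 0.54, Cd55, which speeds the decay of the C3 convertases, was at 0.66 and C1qbp, a C1q-binding protein, at -0.11.

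Nfatc2, Tbk1, Jak3 and Stat5a followed C4a in the order of p. Nfatc2, a calcium-regulated transcription factor of T cell activation, was at 30.2, 11.6 and 21.9 scaled counts in first mice 1, 3 and 6 and 118, 76.1 and 40.1 in flare mice 1, 2 and 12. The groups did not overlap, and the value of first mouse 1 was under its limit. The fitted difference for Nfatc2 was 1.92 on the log2 scale (standard error 0.54), and it ran from 1.07 to 2.87 over 18 other settings. Tbk1, a kinase downstream of nucleic acid sensors, was at 36.2, 35.6 and 39.9 in the first mice and 101, 74.2 and 83.0 in the flare mice, with little spread inside either group. First mouse 1 was under its limit for Tbk1, and also for Jak3, Stat5a and Rela below. For Tbk1 it was 1.20 (standard error 0.35), and 0.15 with the positive controls as the scale.

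Jak3, the kinase bound to the common gamma chain of cytokine receptors, was at 40.3, 27.4 and 36.3 scaled counts in first mice 1, 3 and 6 and 79.2, 102 and 65.1 in flare mice 1, 2 and 12. Stat5a, a transcription factor that Jak3 activates, was at 48.3, 53.6 and 85.0 in the first mice and 208, 184 and 99.0 in the flare mice. Neither gene overlapped between the groups, and flare mouse 12 was the lowest flare sample for both. Their log2 fold changes were 1.25 (standard error 0.38) and 1.37 (standard error 0.42). The JAK, STAT and SOCS list as a whole had a median of 0.36, below that of all genes, with 8 of 11 tested genes above 0.

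NF-kB genes had a median log2 fold change of 0.80, with 13 of 13 tested genes above 0, beside 81.9% of all genes, and 12 above the median of all genes. The scaled counts of the list summed to 1005, 849 and 1697 in first mice 1, 3 and 6 and 2435, 2190 and 1143 in flare mice 1, 2 and 12, so the groups overlapped. Flare mouse 12 lay below first mouse 6, and 12 of the 13 tested genes were lower in it than in the mean of the other flare mice. Nfkbia, the inhibitor of NF-kB, was at 516 and 559 in flare mice 1 and 2 and 187 in flare mouse 12. Rela, the p65 subunit of NF-kB, was at 44.3, 39.0 and 73.5 scaled counts in first mice 1, 3 and 6 and 152, 119 and 85.6 in flare mice 1, 2 and 12, without overlap and with a log2 fold change of 1.16. Chuk, the kinase IKK-alpha, was at 0.93, and both were among the 3 genes of the list with an unadjusted p under 0.05, beside 10.1% of all genes higher at flare. Nfkb1, the p50 precursor, was at 0.59 with overlapping groups.

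Among 7 tested genes of T cell identity and receptor signaling, of 21 on the panel, the median was 0.54. Cd3e, Cd5, Cd6, Cd7, Cd27, Cd28 and Lck of this list were above the limit in no sample. Nfatc2 and Ptprc had an unadjusted p under 0.05, beside 10.1% of all genes higher at flare. Ptprc encodes CD45, which all white blood cells carry. It was at 107, 28.3 and 43.8 scaled counts in first mice 1, 3 and 6 and 152, 212 and 98.1 in flare mice 1, 2 and 12, where flare mouse 12 was below first mouse 1. Cd48, an adhesion ligand of white blood cells, was at 90.6, 43.3 and 63.1 in the first mice and at 143, 143 and 147 in the flare mice. The 3 flare values lay close together, above every first value, and the log2 fold change was 1.16 (standard error 0.38). Il4ra, a receptor chain for IL-4 and IL-13, was at 88.6, 42.9 and 68.3 in the first mice and 150, 119 and 120.4 in the flare mice, a log2 fold change of 0.98 without overlap.

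**Figure D3:**
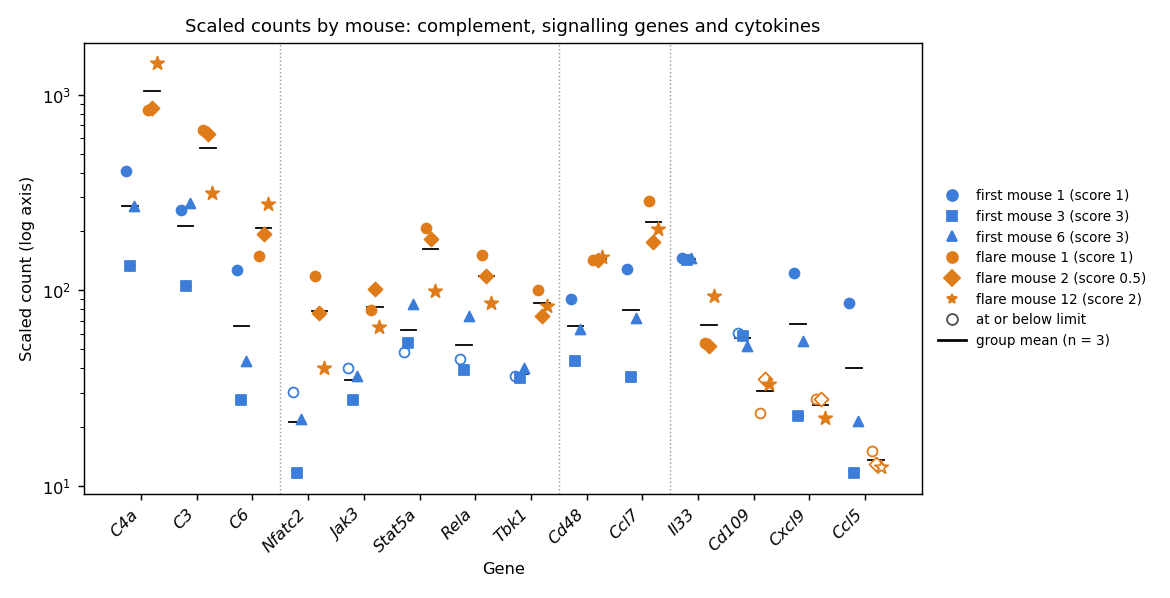
Scaled counts (log axis) of 14 genes in each first mouse (blue) and flare mouse (orange), with skin scores in the legend; open symbols are at or below the detection limit and bars are group means. From C4a to Ccl7 the flare samples lie above the first samples, for Il33 and Cd109 they lie below, and for Cxcl9 and Ccl5 first mouse 1 stands above the other samples.

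Chemokines split in both directions. Of 17 tested, 10 had a log2 fold change above 0 and the list median was 0.60. Ccl7, which attracts monocytes, was at 129, 36.0 and 71.9 scaled counts in first mice 1, 3 and 6 and 285, 176 and 206 in flare mice 1, 2 and 12, a log2 fold change of 1.52 (standard error 0.50). Cxcl12, which recruits and retains Cxcr4-bearing cells, was at 96.7, 33.0 and 83.0 in the first mice and 133, 171 and 108 in the flare mice. The groups did not overlap for either gene. Ccl11, an attractant of eosinophils, had a log2 fold change of -0.67 and Ccl2, a further monocyte attractant, -0.15.

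Cxcl9, induced by interferon-gamma, was at 123, 22.7 and 55.2 scaled counts in first mice 1, 3 and 6 and 27.8, 27.8 and 22.3 in flare mice 1, 2 and 12. Flare mice 1 and 2 were under their limits for Cxcl9. The 3 first samples were above theirs, which alone was enough for it to enter the test. The log2 fold change of Cxcl9 was -1.33 (standard error 0.61), and -0.61 without first mouse 1. Ccl5, a chemokine made by activated T and NK cells, was at 86.6, 11.6 and 21.6 in the first mice and 15.0, 13.0 and 12.5 in the flare mice. First mouse 1 was the highest sample for both genes, and first mouse 3 was no higher than the flare samples for Ccl5. Ccl5 was the 1 gene above the limit in all 3 first samples and in no flare sample, and against the flare limits its mean was at least 1.20-fold lower at flare. That bound rests on first mouse 1, since first mice 3 and 6 lay below the limits of flare mice 1 and 2. Ccl5 entered the test through the first samples alone. Its log2 fold change was -1.45 (standard error 0.73), and -0.32 without first mouse 1. Cxcl10 was at 70.5, 27.9 and 74.2 in the first mice and 68.5, 22.3 and 30.3 in the flare mice, so the groups overlapped.

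The interferon-gamma-inducible list had a median log2 fold change of 0.02, with 6 of 11 tested genes above 0, and type I interferon-stimulated genes had a median of 0.26, with 6 of 8 above 0. MHC class II presentation genes had a median of 0.10, and 0 of 7 lay above the median of all genes. H2-Aa, the alpha chain of I-A, was at 1675 scaled counts in first mouse 1, 250.3 in first mouse 3 and 544 in first mouse 6, and at 604, 403 and 548 in flare mice 1, 2 and 12. The first samples spanned the flare samples, and the sign of the log2 fold change, -0.66, turned to 0.38 without first mouse 1. B2m, the light chain of MHC class I, was at 0.02.

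Il33 and Cd109 were the 2 genes with an unadjusted p under 0.05 and a lower level at flare, and the groups did not overlap for either. Il33, an alarmin held in the nuclei of epithelial and stromal cells, was at 147, 143 and 145 scaled counts in first mice 1, 3 and 6 and 53.5, 52.0 and 93.7 in flare mice 1, 2 and 12. The 3 first values were alike. Its log2 fold change was -1.11 (standard error 0.37), and it stayed negative over 19 other settings, from -2.12 to -0.94. Cd109, a surface protein that binds TGF-beta, was at 60.4, 58.7 and 51.6 in the first mice and 23.6, 35.3 and 33.0 in the flare mice. Its log2 fold change was -0.88 (standard error 0.36), with first mouse 1 and flare mice 1 and 2 under their limits.

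Most T helper cytokines were below detection. Il4, Il5, Ifng and Il28a (Ifnl2, a type III interferon) were at or below the limit in all 6 samples. Ifng, for example, was at 14.1, 3.00 and 6.86 scaled counts in first mice 1, 3 and 6 and 15.0, 11.1 and 7.14 in flare mice 1, 2 and 12. The two-sided exact permutation test gave p = 0.7 for Il4, 0.5 for Il5, 0.5 for Il28a and 0.4 for Ifng, where 0.1 is the smallest p that 3 against 3 samples allow. With counts at or below the limit and no p under 0.05 possible, the test cannot show whether these cytokines differed. Over 17 cytokine and interferon genes tested this way, 16 were above the limit in no sample and the smallest p was 0.2, unadjusted. Il13 was above the limit in 2 first samples and 1 flare sample, at 58.4, 12.4 and 17.7 in the first mice and 32.1, 27.8 and 23.2 in the flare mice. Its log2 fold change was 0.02 (standard error 0.58, adjusted p = 0.992 by edgeR's quasi-likelihood test), and its 95% interval of -1.29 to 1.34 spans a fold of more than 2 in both directions. Tnf, an inflammatory cytokine of T cells and macrophages, was at 40.3, 18.4 and 38.9 in the first mice and 116, 74.2 and 31.2 in the flare mice, with flare mouse 12 inside the first range. It had a higher mean at flare, with a log2 difference of 1.18 (standard error 0.56, adjusted p = 0.466 by edgeR's quasi-likelihood test). Of 14 cytotoxic and NK cell genes, 0 were tested.

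The Th1 programme had a median of 0.55 with 6 of 9 tested genes above 0, and the Th2 programme had a median of 0.44 with 7 of 8 above 0. Gata3 was at 205, 395 and 396 scaled counts in first mice 1, 3 and 6 and 351, 369 and 354 in flare mice 1, 2 and 12. The flare values lay inside the first range, and the log2 fold change was 0.11 with a 95% interval of -0.77 to 0.98. Tbx21, which encodes the Th1 regulator T-bet, and Foxp3, the regulator of regulatory T cells, were above the limit in no sample.

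What stayed alike was read from the interval of each fold change, since a p over the threshold does not show it. The median standard error was 0.46 and the median interval reached 1.05 to either side, and 26 of 277 genes had a 95% interval inside a 2-fold difference either way. They included Gata3, the adhesion receptor Cd44, the cytokine Mif, the adaptor Myd88, the kinase Fyn, the tumor suppressor Trp53, and the proteasome genes Psmb5, Psmb7 and Psmc2. Mif was at 290, 310.3 and 332 scaled counts in first mice 1, 3 and 6 and 325, 301 and 261 in flare mice 1, 2 and 12. Ube2l3, a ubiquitin-conjugating enzyme, was at 88.6, 83.1 and 88.3 in the first mice and 87.8, 96.5 and 78.5 in the flare mice. The groups overlapped for both genes.

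Which genes held inside 2-fold followed the scaling. With TMM factors there were 68, among them Tgfb1, Stat6 and the receptor chains Ifnar2 and Ifngr1, and 1 of the 26 was among them, Il1rap, a coreceptor for IL-1 and IL-33. Without flare mouse 1 or flare mouse 2 there were 0, without first mouse 6 there were 4 and without flare mouse 12 there were 10. With all 14 housekeeping genes there were 39, which shared 19 with the 26, and with the positive controls there were 0. Il1rap was at 40.3, 20.1 and 25.2 scaled counts in first mice 1, 3 and 6 and 34.3, 29.7 and 26.8 in flare mice 1, 2 and 12, with a log2 fold change of 0.12.

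**Figure D4:**
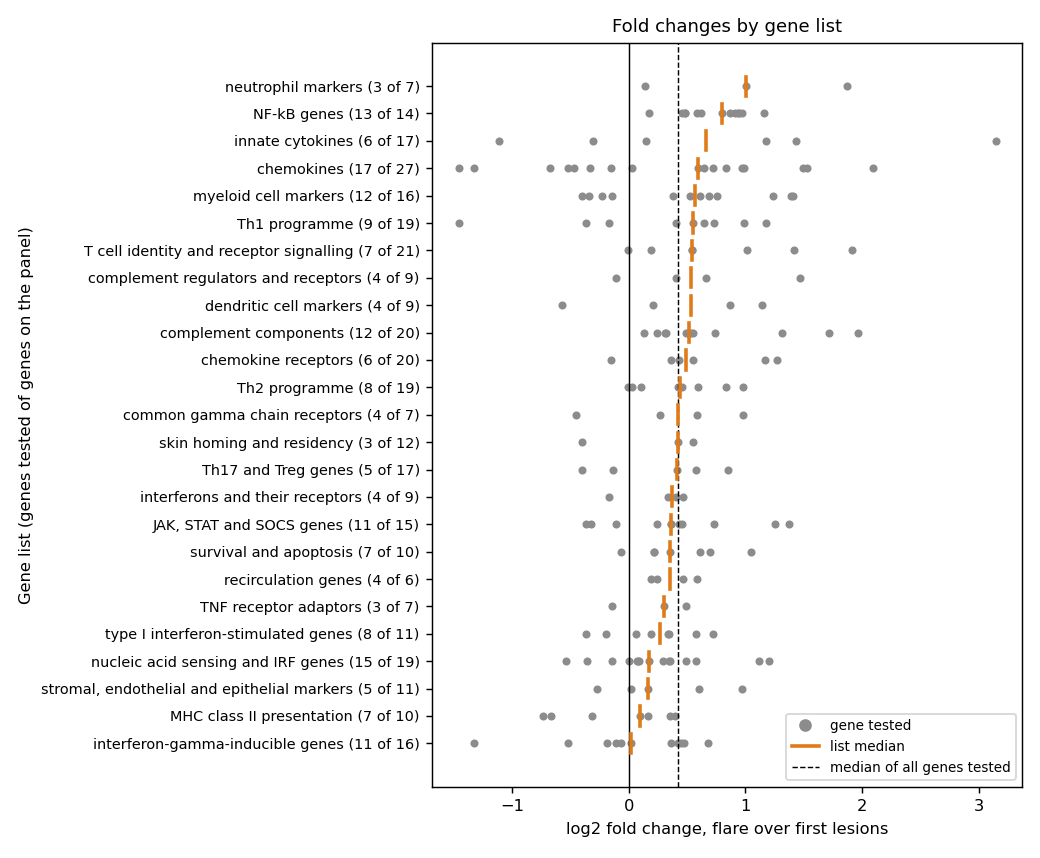
Log2 fold change of flare over first lesions for each tested gene (grey) of the gene lists with at least 3 tested genes, with the list median (orange) and the median of all 277 genes (dashed line at 0.42). The interferon-gamma-inducible and MHC class II lists have the lowest medians, 0.02 and 0.10. The neutrophil list, with 3 tested genes (S100a8, S100a9 and Ceacam1), and the NF-kB list have the highest, 1.00 and 0.80.

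The flare mice were not alike. Over the 277 genes, log2 scaled counts of flare mice 1 and 2 correlated at r = 0.92 across genes, and those of flare mouse 12, from experiment 2, at 0.79 and 0.82 with them and at 0.86 with first mouse 1. The first mice differed too. First mice 3 and 6 correlated at 0.93, first mouse 1 at 0.75 and 0.82 with them, and first mouse 6 at 0.88 and 0.89 with flare mice 1 and 2. Genes are not independent replicates, so no test was made. For 38 genes flare mouse 12 was over 2-fold below the mean of the other flare mice, and for 14 over 2-fold above it, counting genes where this gap was also more than 2 times that between flare mice 1 and 2. Because flare mouse 12 is the 1 skin sample of experiment 2, the mouse and the experiment cannot be told apart.

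On the low side were several genes near the top of the flare order. Lif, a cytokine of the IL-6 family, had the largest log2 fold change among the 20 genes of smallest p, 3.14 (standard error 1.00), with 14.1, 16.3 and 62.1 scaled counts in first mice 1, 3 and 6 and 507, 327 and 25.0 in flare mice 1, 2 and 12. Ceacam1, an adhesion molecule of epithelia and white blood cells, was at 26.2, 21.0 and 34.0 in the first mice and 154, 119 and 29.4 in the flare mice. In both genes flare mouse 12 lay among the first samples. Without it, which leaves experiment 1 alone, the log2 fold changes were 3.69 and 2.32. Muc1, an epithelial mucin, was at 36.2, 38.1 and 143 in the first mice and 362, 425 and 42.8 in the flare mice.

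The same split held for Cxcl15, a chemokine known from lung epithelium, at 156 and 121 scaled counts in flare mice 1 and 2 and 17.8 in flare mouse 12. It held for Tgfb3, a TGF-beta ligand, at 300 and 343 against 62.4, for Clu, an extracellular chaperone, at 717 and 1060 against 155, and for Mx1, an interferon-induced antiviral GTPase, at 193 and 184 against 17.0. Mx1 was at 153, 26.6 and 62.8 in first mice 1, 3 and 6, so that both groups held high and low samples, and its log2 fold change was 0.72 (standard error 0.87).

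Most myeloid markers were higher in flare mouse 12 than in the other flare mice. Of 12 tested, 8 were above the mean of the other flare mice and 4 below it. The 8 had log2 differences of 0.34 to 1.73. Among the 4, Emr1 and Fcgr4 were nearly level, at -0.024 and -0.030, Lilrb4 was at -0.36 and Cd14 at -1.69. Cd14, a coreceptor for lipopolysaccharide, was at 475 and 546 scaled counts in flare mice 1 and 2 and 157 in flare mouse 12, and Emr1, which encodes the macrophage marker F4/80, at 42.8 and 52.0 against 46.4. Csf1r, the receptor for the macrophage growth factor Csf1, was at 154 and 139 scaled counts in flare mice 1 and 2 and 488 in flare mouse 12, against 165, 47.1 and 92.5 in first mice 1, 3 and 6. C1qa, given above, followed this order. Cd163, a scavenger receptor of macrophages, was at 128 and 143 against 360.4, Trem2, a lipid receptor of macrophages, at 51.4 and 74.2 against 176, and Fcgrt, the neonatal Fc receptor, at 158 and 128 against 506. The summed myeloid markers were at 1775 and 2135 in flare mice 1 and 2 and 3120 in flare mouse 12, beside 2946, 924 and 1811 in the first mice. Lef1, a transcription factor of T cells and of skin epithelium, was at 36.4 and 33.4 in flare mice 1 and 2 and 144 in flare mouse 12. C4a and C6, in contrast to C3, were highest in flare mouse 12.

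**Figure D5:**
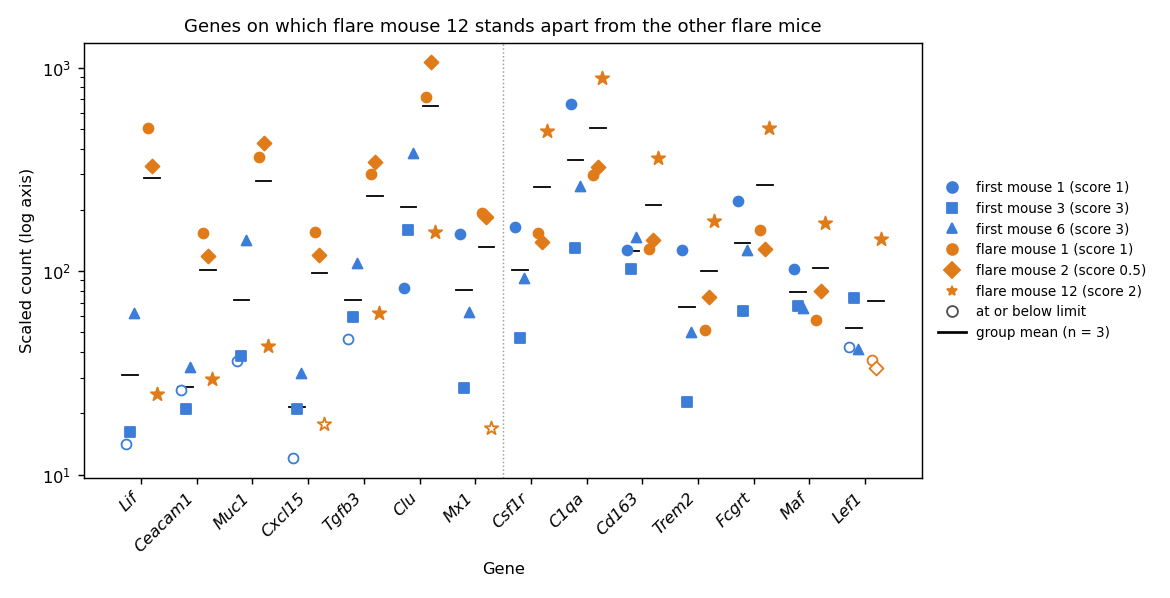
Scaled counts (log axis) of 14 genes on which flare mouse 12 (star) lies apart from flare mice 1 and 2, chosen for this gap; blue symbols are first mice, orange symbols flare mice, open symbols at or below the limit and bars group means. Left of the dotted line flare mouse 12 is the lowest flare sample, right of it the highest.

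Within experiment 1 alone, 3 first against 2 flare samples, 0 of 291 genes passed and the smallest adjusted p was 0.0932, for Ceacam1, by edgeR's quasi-likelihood test. At an unadjusted p under 0.05, 37 genes were higher and 1 lower there. C4a had a log2 fold change of 1.65, Nfatc2 of 2.24, Tbk1 of 1.23, Il33 of -1.46, Cxcl9 of -1.22 and Ccl5 of -1.40. These samples are part of the 6, so signs shared with the fit of all 6 are no separate support. For Cxcl9 and Ccl5 both flare samples of experiment 1 were under their limits. With the skin score as a covariate, 0 of 277 genes passed, with 4 higher and 5 lower at an unadjusted p under 0.05. The first samples spread more than the flare samples, with a median SD on the log2 scale of 0.57 against 0.39, and 188 of 277 genes had the larger SD in the first samples.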

How the data were processed

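The authors deposited raw digital counts of 12 samples, which are unscaled whole numbers, and per the study's methods analysed them with Rosalind software. Of the probes' accessions, 537 matched RefSeq names of mouse assembly GRCm38.p6, and 13 symbols differed from it. Scaling used Eef1g, G6pdx, Gapdh, Oaz1, Ppia, Rpl19 and Tubb5, above the limit in all 12 samples. Genes above the limit (negative control mean plus 2 SDs) in at least 3 of the 6 skin samples were tested with edgeR 4.0.16 in R 4.3.3, on counts with the housekeeping scale as library size and Benjamini-Hochberg adjustment over 277 genes. Standard errors came from the F statistic (log2 fold change divided by its square root). The script was tested on simulated data. Members and gene lists were chosen with earlier results of these data known. Named genes were the 10 of smallest p each way, those given with the task, the cytokines the study shows, the 10 narrowest intervals, genes detected in 1 group, and the highest members of each list. Other named genes, such as C6, Rela and those on which flare mouse 12 stood apart, were chosen after their values were seen. Apart from mouse and experiment numbers nothing says how independent samples were, so p-values measure the spread between these samples. Alternatives were other scalings, filters and limits, DESeq2 1.42.0, limma 3.58.1 on log2(scaled count + 1), background subtraction, all 12 samples, the skin score as a covariate, the methods' t-test and each sample left out. Some genes that the rule names are not reported here.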

Additional observations from a re-analysis of the deposited data

How the results depend on the processing

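No paired analysis was possible because the groups share a single mouse number, 1, and the labels do not say that it marks the same animal. The count of genes past an adjusted p under 0.05 was 0 by edgeR's quasi-likelihood test and stayed at 0 under every alternative with an adjusted p other than DESeq2's Wald test, which called 10; it was 30 at an unadjusted p under 0.05 and 25 with the methods' t-test unadjusted. Leaving out each sample in turn gave 0 to 0. The count of genes inside 2-fold, 26, was 68 with TMM factors, 70 with DESeq2 size factors, 67 with total endogenous counts and 0 with the positive controls, where the common shift of all genes differed. It was 39 with all 14 housekeeping genes, 17 without a filter, 17 with genes above the limit in all 6 samples, 6 after background subtraction and 5 with the skin score as a covariate, and it ran from 0 to 37 when each sample was left out, 0 without flare mouse 1 or flare mouse 2, 4 without first mouse 6, 10 without flare mouse 12. Over the samples left out in turn, H2-DMa ran from -1.20 to 0.12, Il1rn from -0.73 to 0.0037 and H2-Aa from -1.10 to 0.38, each turning positive without first mouse 1 and lowest without first mouse 3. Without first mouse 1, 70 genes were higher and 1 lower at an unadjusted p under 0.05. Il13, at 0.02, turned to -0.25 with TMM factors, -0.27 with DESeq2 size factors, -0.23 with total counts, -0.076 with all 14 housekeeping genes, -0.42 with the positive controls, -0.0088 without a filter, -0.25 after background subtraction, -0.64 with the skin score, -0.089 on the scale of the t-test, and ran from -0.36 to 0.85 over the samples left out, negative without first mouse 3, first mouse 6, flare mouse 1 or flare mouse 2. The cause was not tested. Scaling by Cd3 chain genes was not run, since 0 of them were above the limit in all 6 samples. Depth limits the genes near the limit, where 270 of 547 genes were not tested.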
